A study of Mus musculus with 8 samples.

Results

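Fatty acid oxidation in peroxisomes and mitochondria was examined here through 39 genes, which cover the peroxisomal enzymes and their transport partners, the peroxins that build the organelle, the mitochondrial carnitine shuttle and oxidation steps, and the fatty acid sensor Ppara. A member was measured where a probe set (a group of array probes for 1 transcript) carried its gene symbol, and this held for 38 of the 39 among 19505 genes in all. Etfb was not analysed here, and Peci was found under its current symbol Eci2. Each of the 38 genes had 1 probe set. Ehhadh entered because it was among the genes of lowest p between a3a6KO and control in these same data, so its values are given as a description. The other members were taken for their role in the pathway, with earlier results of these data known.

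The arrays measured sorted luminal mammary cells of mice on day 15 of pregnancy, 4 samples labelled a3a6KO and 4 labelled control. The a3a6KO name refers to the laminin-binding integrin chains alpha 3 and alpha 6, and these samples have titles that begin with DKO but also contain Ctrl. All samples come from pregnant mice, and each was amplified from 500 pg of total RNA. The Cre line, the deleted parts of the genes, the genotype of the controls, the strain and the age of the mice were not found in the labels. Levels are log2 values that the authors made with RMA, and every difference is a3a6KO minus control on that scale. "Background" below is the level that 95% of an array's intron control sets stay under, which lay between 6.38 and 6.90 on the 8 arrays.

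Beta-oxidation shortens fatty acyl-CoA through repeated rounds of oxidation, hydration, a second oxidation and thiolysis. Peroxisomes take very long, branched and dicarboxylic acids and pass shortened chains on, whereas mitochondria admit long chains through the carnitine shuttle and oxidise them for energy. In the mammary gland of late pregnancy, luminal cells turn towards making milk fat. Ehhadh encodes the peroxisomal L-bifunctional enzyme, which carries out hydration and the second oxidation, and Hsd17b4 the D-bifunctional enzyme for the same steps.

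The promoter windows of 2 genes are shown, that of Ehhadh because this gene separated the groups and that of Hadhb because it shares its bases with Hadha, the partner subunit whose level is compared with it below. Both come from RefSeq (build GRCm38.p6), run from 250 bases before the transcript start to 50 after it, and are written 5′ to 3′ on the gene's strand. In the Ehhadh window, chr16:21787785-21788084 on the minus strand, capitals mark the letters CCAAT read on the other strand. In the Hadhb window, chr5:30155003-30155302 on the plus strand, capitals mark the 228 bases that also lie in the window of Hadha, whose start is 273 bases away on the opposite strand.
Ehhadh: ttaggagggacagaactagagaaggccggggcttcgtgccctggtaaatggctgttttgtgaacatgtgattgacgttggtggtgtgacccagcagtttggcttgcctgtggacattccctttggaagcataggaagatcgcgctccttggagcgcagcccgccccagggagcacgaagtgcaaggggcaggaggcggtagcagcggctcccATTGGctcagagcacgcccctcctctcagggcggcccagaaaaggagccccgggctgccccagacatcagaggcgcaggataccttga
Hadhb: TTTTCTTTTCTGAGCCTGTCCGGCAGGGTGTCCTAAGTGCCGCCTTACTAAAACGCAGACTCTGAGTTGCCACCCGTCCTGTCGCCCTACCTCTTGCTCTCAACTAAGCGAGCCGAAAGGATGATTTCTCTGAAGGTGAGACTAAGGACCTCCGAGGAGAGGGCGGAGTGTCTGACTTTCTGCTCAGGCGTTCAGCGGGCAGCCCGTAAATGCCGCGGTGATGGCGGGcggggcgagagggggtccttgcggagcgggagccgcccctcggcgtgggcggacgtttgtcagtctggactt

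The letters AGGTCA, the core site bound by many nuclear receptors, and AGGTCANAGGTCA, the direct repeat associated with PPAR, were searched on both strands; the second contains the first. Windows were found for 32 of the 38 members, 36 windows in all. AGGTCA occurred in 13.9% of these windows, against 16.3% of all 32851 windows, and it was held by Acadm, Acadvl, Cpt1a, Echs1 and Scp2. The direct repeat occurred in 0 of the 36 windows and in 0.0396% of all windows. CCAAT occurred in 33.3% of the members' windows, Ehhadh among them, against 37.4% of all windows. These matches describe the letters in a short window only.

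As a check of the labels, Itga6 was at 5.95, 3.65, 8.21 and 7.85 in a3a6KO 1 to 4, against 8.83, 8.73, 9.14 and 8.80 in control 1 to 4. Itga3 was at 5.11, 4.34, 5.55 and 5.60 in a3a6KO and at 6.72, 6.30, 5.37 and 7.27 in control. Itga6 was therefore lower in every a3a6KO sample but least so in a3a6KO 3 and 4, and Itga3 overlapped between the groups. Itga3 exceeded background on the array of control 4 only. Pairs of arrays of different groups correlated as closely over genes (0.924 to 0.946) as pairs of 1 group (0.930 to 0.945). Luminal markers were above background on all arrays in 10 of 10 measured genes, Krt8, Krt18 and Epcam among them. Basal markers had lower means in a3a6KO in 12 of 12 genes (median -0.65), with summed log2 levels of 65.4 to 86.0 in a3a6KO and 73.6 to 93.7 in control. Of 8 measured adipocyte markers, 7 were below background on every array, Adipoq, Plin1 and Lep among them, and the exception was Fabp4. Their summed log2 level was 35.5 to 38.8 in a3a6KO and 34.9 to 38.2 in control. The summed level of 9 endothelial markers was 54.19 in a3a6KO 3 and 34.88 to 43.49 in the other a3a6KO samples, against 56.46 in control 4 and 37.79 to 39.14 in the other controls, with 3 of the 9 below background on every array. Fibroblast markers, 6 of 7 below background throughout, summed to 26.59 to 33.83 in a3a6KO and 26.86 to 32.02 in control, again highest in a3a6KO 3 and control 4. Leukocyte markers, 6 of 7 below background throughout, summed to 23.04 to 24.47 in a3a6KO and 22.74 to 29.45 in control, highest in control 3. The part of these cell types in the results below was not tested. A fit with a basal keratin score is given below, but that score itself differed between the groups (means -0.65 in a3a6KO and 0.65 in control). It therefore cannot separate the part of basal cells from that of the group.

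Ehhadh stood at 4.45, 3.98, 3.95 and 5.05 in a3a6KO 1 to 4, against 6.38, 5.73, 6.86 and 6.49 in control 1 to 4. All a3a6KO values lay below all control values, with means of 4.36 ± 0.52 in a3a6KO and 6.36 ± 0.47 in control (SD, n = 4 each) and a difference of -2.01. Ehhadh exceeded background on 0 a3a6KO arrays and 1 control array, so the size of the difference is uncertain and no fold is given. In sorted cells measured in bulk, fewer cells with a transcript and less of it per cell cannot be told apart.

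In the limma fit over all genes, 0 of the 38 members passed an adjusted p of 0.05, where 0% of all 19505 genes did. Members with a lower mean in a3a6KO were 24 of 38, against a background of 50.1% of all genes, and 14 had a higher mean (49.6% of all genes). With a basal keratin score as a covariate 15 of 38 were lower. The share of all genes lower in that fit was not counted, so this number has no background, and its cause was not tested. The median difference over the members was -0.05, or -0.04 without Ehhadh, against a median of 0.00 over all genes. Differences smaller than 0.5 in either direction were found in 34 of the 38 members (89.5%) and in 88.7% of all genes. The counts over 37 members that follow leave out Ehhadh, which was chosen on this contrast. Of the other 37 members, 1 was lower at an unadjusted p under 0.05, Hsd17b4, where 2.73% of all genes were, and 2 were higher, Eci2 and Hadh, where 2.4% were. In 0 of the 37 did the groups not overlap, against 1.56% of all genes with a3a6KO below control and 1.38% above. A difference of at least 1 was found in 0 of the 37, where 0.959% of all genes were lower and 0.559% higher by that much. The 95% interval lay wholly between -1 and 1 in 27 of the 37. Many members were dim, with 20 of 38 below background on every array and 6 above it on every array. Of all 19505 genes, 14900 were below it on every array and 1609 above it on every array. For a dim gene a small difference can hide a larger change.

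**Figure D1:**
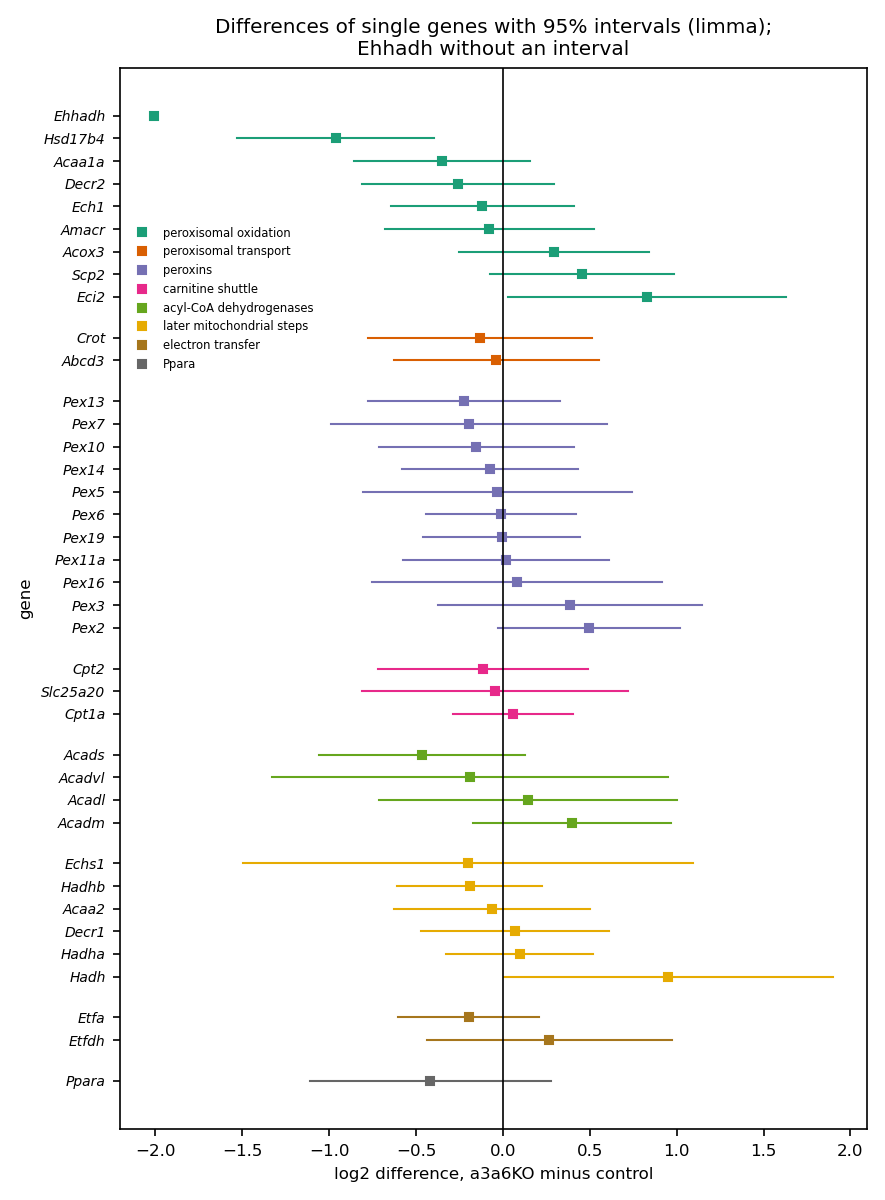
Log2 differences (a3a6KO minus control, horizontal axis) of the 38 measured genes, grouped and coloured by role. Squares are differences and lines their 95% intervals from limma; Ehhadh, at -2.01, is drawn without an interval, and 34 of the 38 squares lie within 0.5 of 0.

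Among the enzymes of peroxisomal beta-oxidation, 6 of 9 had lower means in a3a6KO and 3 had higher means (median -0.12). Ehhadh is among these 6 and enters the median. Hsd17b4 was at 4.92, 5.32, 5.67 and 4.96 in a3a6KO 1 to 4, against 6.29, 5.60, 6.32 and 6.51 in control 1 to 4. Only control 2 and a3a6KO 3 overlapped, and control 2 was also the lowest control for Ehhadh. The difference was -0.96 (SE 0.252, 95% interval -1.53 to -0.39), the 76th lowest p of all genes, with an adjusted p of 0.944 in limma, and thus did not pass. Like Ehhadh, Hsd17b4 exceeded background on 0 a3a6KO arrays and 1 control array. Acaa1a, a thiolase of the last step, was at 5.80, 5.81, 5.25 and 5.08 in a3a6KO, against 6.08, 5.52, 5.77 and 5.97 in control, a difference of -0.35 (SE 0.225, adjusted p = 0.948 in limma) with overlapping groups.

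The other peroxisomal enzymes lay on both sides of 0. Acox3, an oxidase of the first step that acts on branched chains, differed by 0.30 and Scp2, whose products include a sterol carrier and a thiolase, by 0.46 (95% interval -0.07 to 0.99). The 4 control values of Acox3 lay within 0.11 of each other, while its a3a6KO values spanned 1.18. Decr2, a reductase needed for unsaturated chains, differed by -0.26 and the racemase gene Amacr, which prepares branched chains, by -0.08. Ech1, an isomerase of unsaturated chains and the one enzyme of these 9 above background on every array, differed by -0.12 (95% interval -0.65 to 0.41). Eci2, another isomerase of unsaturated chains, was at 5.85, 6.33, 6.91 and 5.77 in a3a6KO, against 5.98, 5.44, 4.51 and 5.62 in control. Its difference of 0.83 (SE 0.355) ran opposite to that of Ehhadh, did not pass (adjusted p = 0.944 in limma), and rested on values of which 1, in a3a6KO 3, exceeded background.

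Both genes of peroxisomal acyl transport were close between the groups. Abcd3, the membrane transporter that brings fatty acyl-CoA into the peroxisome, was at 7.13, 7.64, 6.69 and 7.13 in a3a6KO, against 7.32, 7.45, 6.58 and 7.39 in control. It exceeded background on every array and differed by -0.04 (SE 0.263, adjusted p = 0.993 in limma), less than the spread between replicates. Crot, the octanoyltransferase that hands shortened chains to carnitine for export, was at 4.27, 3.08, 3.50 and 3.31 in a3a6KO and at 3.14, 3.91, 3.79 and 3.85 in control. Its groups overlapped widely (-0.13, SE 0.286, adjusted p = 0.978 in limma), and it was below background throughout.

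Peroxins showed no common direction. Of 11 peroxins, 7 had lower and 4 higher means in a3a6KO, all 11 differed by less than 0.5, and their median difference was -0.01. Pex2, a ring-finger subunit of the complex that recycles the import receptor, was at 5.40, 4.99, 4.86 and 4.45 in a3a6KO, against 4.12, 4.35, 4.75 and 4.49 in control (0.50, SE 0.232, adjusted p = 0.944 in limma). The values of a3a6KO 1, 2 and 3 lay above every control value, and that of a3a6KO 4 did not. Pex3, which anchors the import of membrane proteins, was at 3.14, 4.69, 3.47 and 4.21 in a3a6KO and at 3.48, 3.23, 3.32 and 3.94 in control (0.39, SE 0.337, adjusted p = 0.950 in limma). Both extremes of Pex3 were a3a6KO samples. The remaining peroxins differed by -0.23 to 0.08. They include Pex5 and Pex7, the receptors that carry matrix enzymes into the organelle (-0.03 and -0.20), the docking factor Pex14 (-0.07), and Pex19, the chaperone of membrane proteins (-0.01). Pex13, the docking partner of Pex14, differed by -0.23, the ring-finger gene Pex10 by -0.15 and the recycling ATPase gene Pex6 by -0.01. Pex16, which acts with Pex3 in membrane assembly, differed by 0.08, and Pex11a, a division factor inducible by PPAR-alpha ligands, by 0.02 (95% interval -0.57 to 0.61). Of the 11 genes, 9 were below background on every array, and Pex14 and Pex19 exceeded it on some.

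**Figure D2:**
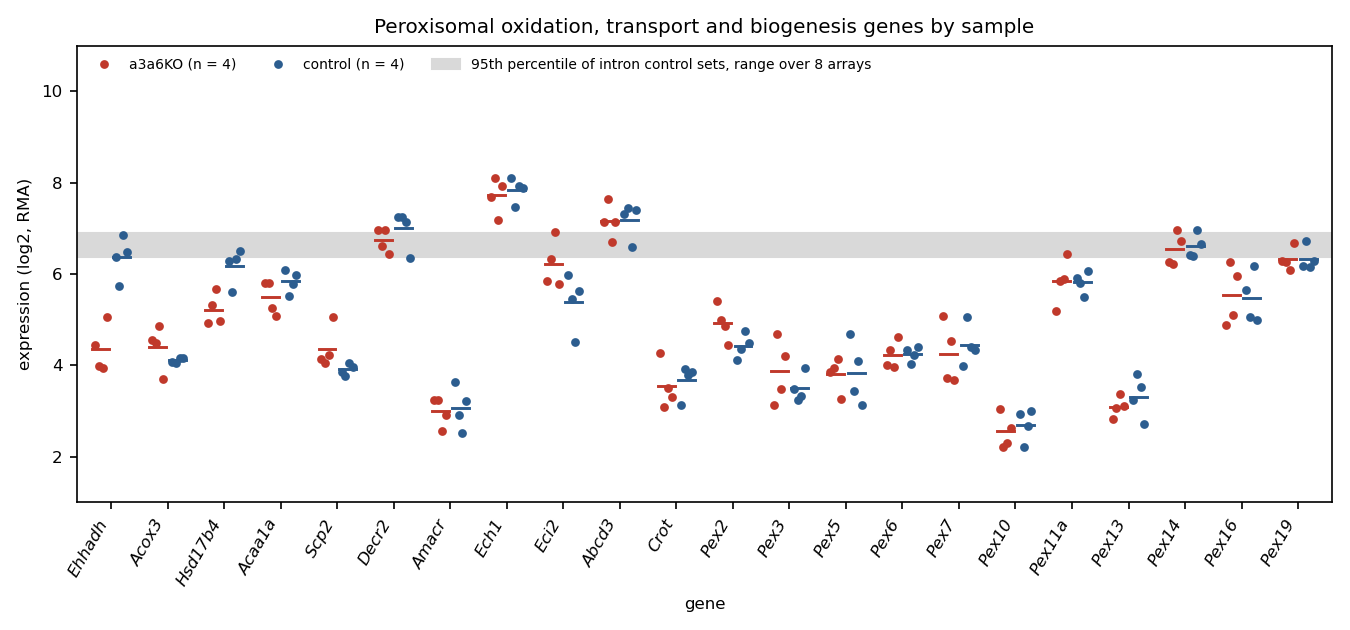
Expression (log2, vertical axis) of the 22 peroxisomal genes in each sample, a3a6KO to the left of control for each gene; points are samples, short lines are means of 4, and the grey band spans the background levels of the 8 arrays. The 4 a3a6KO points of Ehhadh, which was chosen for its difference in these data, lie below its 4 control points, and the points of the other genes overlap.

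Genes of the mitochondrial carnitine shuttle showed no difference larger than their error. Cpt1a, which makes acylcarnitine at the outer membrane and sets the pace of entry, was at 6.09, 6.42, 6.48 and 6.33 in a3a6KO, against 6.26, 6.22, 6.23 and 6.37 in control. The difference of 0.06 had a 95% interval of -0.29 to 0.41 (SE 0.153, adjusted p = 0.978 in limma), the narrowest of all members, and all 8 values lay below background. Cpt2, which restores acyl-CoA in the matrix, was at 6.60, 5.65, 6.54 and 6.64 in a3a6KO and at 6.13, 6.62, 6.27 and 6.86 in control (-0.11, SE 0.268, adjusted p = 0.978 in limma). That sign was not stable, since the difference was 0.12 without a3a6KO 2, its lowest value, and 0.02 without control 4. With the basal keratin covariate it was 0.15. The carnitine carrier gene Slc25a20 differed by -0.05 (95% interval -0.81 to 0.72).

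The 4 acyl-CoA dehydrogenase genes, which catalyse the first oxidation for successive chain lengths, split evenly. Acadm, for medium chains, was at 6.70, 7.25, 6.61 and 6.07 in a3a6KO, against 6.23, 6.06, 6.58 and 6.17 in control (0.40, SE 0.253, adjusted p = 0.947 in limma). Acads, for short chains, was at 4.53, 5.40, 5.43 and 5.53 in a3a6KO, against 5.40, 5.72, 6.12 and 5.51 in control (-0.46, SE 0.263, adjusted p = 0.946 in limma). Groups overlapped in both, and the Acads difference was -0.23 without a3a6KO 1. Acadl, for long chains, differed by 0.14, and Acadvl, for very long chains, by -0.19. Acadvl varied more within a3a6KO than within control, at 5.32, 4.43, 6.50 and 7.04 in a3a6KO 1 to 4 and 6.46, 5.80, 5.91 and 5.88 in control 1 to 4. Its 2 low a3a6KO values, in a group with a range of 2.61, came from a3a6KO 1 and 2, the samples with the lowest Itga6. The same samples had the lowest basal keratin scores (-1.21 and -1.23, against -0.10 and -0.07 in a3a6KO 3 and 4). Neither relation was tested.

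Genes of the later mitochondrial steps were mostly close between groups. Hadha and Hadhb encode the subunits of the trifunctional protein, which carries out the last 3 steps for long chains. Hadha was at 9.47, 9.01, 9.26 and 8.79 in a3a6KO, against 8.86, 9.14, 9.15 and 8.99 in control, and Hadhb at 7.72, 7.45, 7.83 and 7.38 in a3a6KO, against 7.62, 7.56, 7.90 and 8.06 in control. Both were above background on every array, both overlapped between groups, and they differed by 0.10 (95% interval -0.32 to 0.52, adjusted p = 0.978 in limma) and -0.19 (95% interval -0.61 to 0.23, adjusted p = 0.950 in limma), the pair with the shared promoter bases shown above.

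Hadh, the dehydrogenase for short and medium chains, had the highest difference of all members. It was at 7.56, 7.51, 6.65 and 6.17 in a3a6KO, against 6.19, 6.97, 5.37 and 5.55 in control. The groups overlapped through a3a6KO 3 and 4 and control 1 and 2, and the difference of 0.95 (SE 0.421, 95% interval 0.005 to 1.90) did not pass (adjusted p = 0.944 in limma). Hadh exceeded background on 3 a3a6KO arrays and 1 control array. The thiolase gene Acaa2, above background on every array, differed by -0.06, and the reductase gene Decr1, far below background, by 0.07. Echs1, the short-chain hydratase gene, differed by -0.20 but varied most of all members, at 4.41, 3.50, 5.38 and 6.0 in a3a6KO and 4.58, 5.40, 6.02 and 4.10 in control, so its interval ran from -1.50 to 1.09.

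Electrons from the acyl-CoA dehydrogenases pass to the electron transfer flavoprotein and its dehydrogenase. Etfa, a subunit of the flavoprotein, was at 7.97, 7.88, 8.07 and 8.11 in a3a6KO, against 7.81, 8.43, 8.39 and 8.19 in control, above background on every array (-0.20, SE 0.181, adjusted p = 0.950 in limma). Its a3a6KO values all lay inside the control range. Etfdh, the dehydrogenase, was at 7.60, 7.00, 6.57 and 7.37 in a3a6KO, against 6.41, 6.53, 6.92 and 7.61 in control (0.27, SE 0.313, adjusted p = 0.956 in limma), and its a3a6KO values too lay inside the control range.

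**Figure D3:**
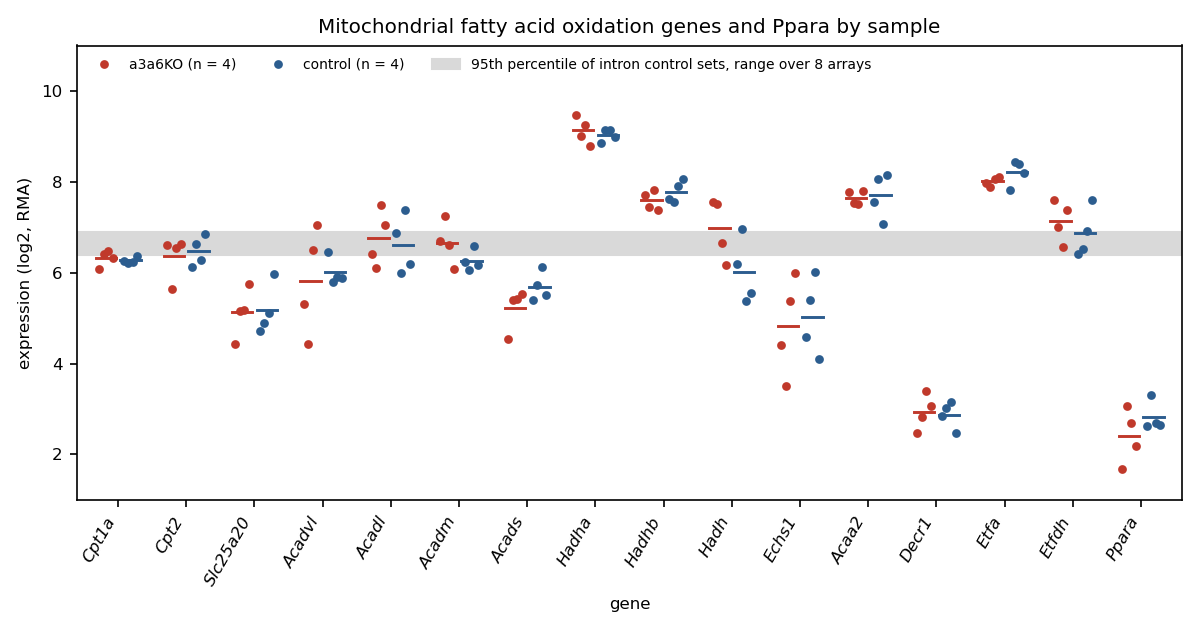
Expression (log2, vertical axis) of the 15 mitochondrial genes and Ppara in each sample, drawn as in the plot of the peroxisomal genes. The points of both groups overlap for every gene, and Hadha, Hadhb, Acaa2 and Etfa lie above the grey background band on all arrays.

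Ppara, the receptor that senses fatty acids and switches on Ehhadh and other oxidation genes in liver, was at 1.68, 3.07, 2.69 and 2.18 in a3a6KO, against 2.63, 3.31, 2.70 and 2.65 in control. These values lay around or below the median of the intron sets (2.85 to 3.07), so its difference of -0.42 (SE 0.307, adjusted p = 0.950 in limma) carries little information on the level of the receptor.

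Averaged over each role, samples differed as much within groups as between them once Ehhadh was set aside. The mean deviation of the 10 other peroxisomal enzymes and transport genes from each gene's own mean was 0.06, 0.06, -0.02 and -0.18 in a3a6KO 1 to 4, against 0.17, -0.07, -0.13 and 0.09 in control 1 to 4. Peroxins gave -0.08, 0.07, -0.02 and 0.08 in a3a6KO, against 0.01, -0.07, 0.08 and -0.08 in control. The 15 mitochondrial genes gave -0.08, -0.21, 0.18 and 0.19 in a3a6KO, against -0.15, 0.01, 0.09 and -0.01 in control, so the a3a6KO samples were both the lowest and the highest. The median difference was -0.055 over the 22 peroxisomal members, -0.038 over the 21 without Ehhadh, and -0.045 over the 15 mitochondrial ones. Without a3a6KO 2 the mitochondrial median was 0.12, and without a3a6KO 3 the peroxisomal median was 0.03, so neither sign is stable.

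**Figure D4:**
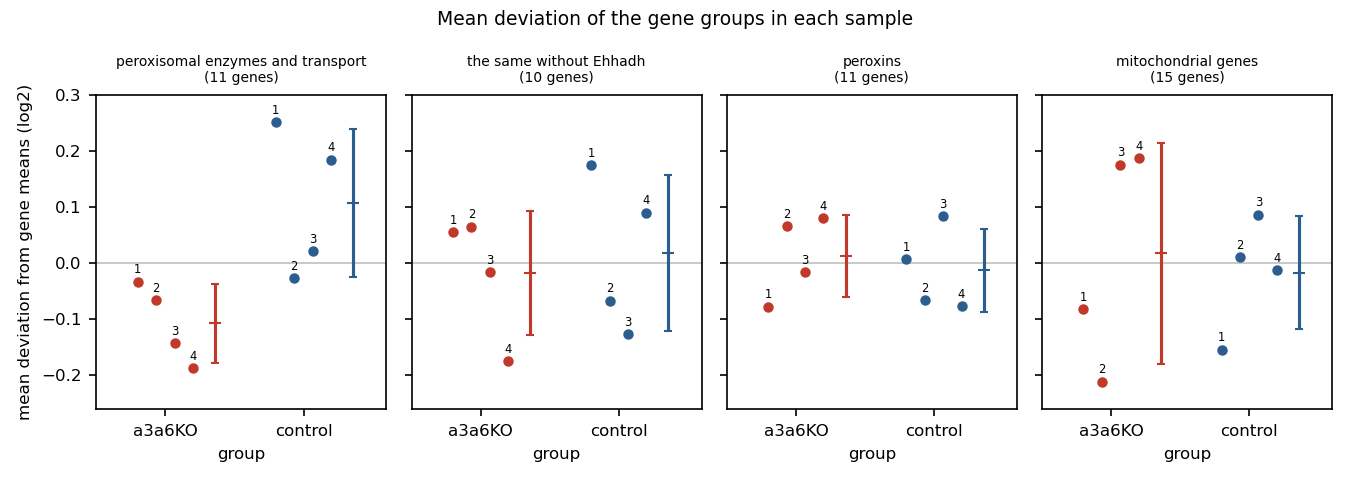
Mean deviation from each gene's mean over 8 arrays (log2, vertical axis) for 4 gene groups, by group of samples; points are samples with their replicate number, and bars are the mean ± SD of 4. Without Ehhadh the a3a6KO and control points of the peroxisomal enzymes overlap, as do those of the peroxins and the mitochondrial genes.

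The wider pathway was described through 85 measured genes of 100 in 6 lists, again with 0 genes past an adjusted p of 0.05. Of the 85, 55 had lower and 29 higher means in a3a6KO and 1, Fabp1, had equal means. The median was -0.11, and 56 were below background on every array, where 14900 of all 19505 genes were. In the list of other peroxisomal oxidation genes, 13 of 18 had lower means (median -0.12). Hacl1, a lyase of peroxisomal alpha-oxidation, was at 4.71, 4.53, 5.06 and 4.87 in a3a6KO, against 5.19, 5.39, 6.20 and 5.14 in control, and Crat, which moves short acyl groups onto carnitine, at 6.31, 6.48, 6.60 and 7.42 in a3a6KO, against 6.10, 6.04, 6.16 and 5.37 in control. Neither gene's groups overlapped, Hacl1 being lower in a3a6KO (-0.69) and Crat higher (0.79), yet each had an adjusted p of 0.944 in limma. Hacl1 was below background on every array, and Crat exceeded it on 1 a3a6KO array and 0 control arrays. Of the 85 genes, 3 were lower and 1 was higher without overlap, where 1.56% and 1.38% of all genes were. Nudt19, a hydrolase of CoA esters, differed by -0.53 and the thiolase paralog Acaa1b by 0.14; Acaa1b and Acaa1a are close copies whose probes may share signal.

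Other matrix and membrane genes of the peroxisome had lower means in 14 of 20 (median -0.17), with Tysnd1, the protease that trims imported enzymes, at -0.32 without overlap between groups, Pxmp4 at -0.51 and the oxidase gene Pipox at -0.54. Tysnd1, Pxmp4 and Pipox were below background on every array. Other peroxins and division genes had lower means in 4 of 6, with the fission genes Fis1 at -0.43 and Mff at -0.33 and Pex11g at 0.40. Other mitochondrial oxidation genes split 8 to 8 (median 0.01). Of these, Hsd17b10, a dehydrogenase of branched chain catabolism, differed by 0.42, the thioesterase gene Acot13 by 0.41 and the acyl-CoA synthetase gene Acsl4 by -0.36, and all 3 were above background on every array. None of the 9 genes named from these 3 lists passed over all genes in limma (adjusted p of 0.944 to 0.947).

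Among PPAR partners and coactivators, 8 of 11 had lower means (median -0.10). Ppargc1b, which encodes a coactivator of oxidative metabolism, was at 5.63, 5.70, 5.82 and 5.20 in a3a6KO, against 7.00, 7.02, 6.31 and 5.98 in control. Its groups did not overlap and it differed by -0.99 (SE 0.270), with an adjusted p of 0.944 in limma, and it exceeded background on 0 a3a6KO arrays and 2 control arrays. Its relative Ppargc1a differed by -0.38, the adipogenic receptor gene Pparg by -0.14 and Rxrg by 0.18, all below background on every array. Textbook target genes of PPAR-alpha split 8 lower to 7 higher with 1, Fabp1, equal, and had a median of 0.00. Pdk4, a kinase that restrains glucose oxidation, and Fabp3, which encodes a fatty acid carrier of the cytosol, were above background on every array and differed by 0.49 and -0.30, while Fgf21, near the median of the intron sets, differed by -0.31. Of these 16 targets 15 differed by less than 0.5 (88.7% of all genes did), and 0 had an unadjusted p under 0.05, where 2.73% of all genes were lower and 2.4% higher at that level.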

How the data were processed

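Expression was measured on Affymetrix arrays, 1 per sample. Per the submitters' processing notes, the authors made the deposited log2 values with Affymetrix Expression Console and RMA, which corrects background, equalises the arrays by quantiles and summarises probes; a shift common to nearly all genes cannot be seen in them. Versions and the genome build behind the probe sets stay unnamed there. The values ran from 0.96 to 13.28 and were used as deposited. Of 28846 probe sets, 19572 had 1 symbol in GEO's platform annotation, 0 several and 9274 none. Where a gene had several sets (55 genes), the one with the highest mean over the 8 arrays was kept.

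Groups came from the cell subtype label. They were compared with limma 3.58.1 in R 4.3.3 (group as the only term, two-sided, Benjamini-Hochberg over 19505 genes, threshold 0.05), checked on simulated data. Background was the 95th percentile of 5222 intron control sets per array; exact depth has no counterpart on arrays, whose number limits precision (median half-width of the members' 95% intervals 0.58). The series design calls the samples biological replicates. Same-numbered samples did not deviate together, so the main fit has no block, though this cannot exclude a pairing. Alternatives were all named probe sets, a filter on dim genes, a trended robust variance, array weights, median centring, a basal keratin covariate, a replicate block and leaving out each sample.

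The members, lists and alternatives were chosen with earlier results of these data known. Values in every sample are given for Ehhadh, the 2 members of smallest p per role, members without overlap, and Ppara, Cpt1a, Acadm, Hadha, Hsd17b4 and Acaa1a; of each list of other genes, the differences of up to 3 of smallest p, with those of Acaa1b, Pparg and Ppargc1a. The sample values of Hacl1, Crat, Ppargc1b, Eci2, Acadvl and Echs1 and the ranges of Acox3 were added after they were seen; the other members are given by difference. Other genes named in that rule are not reported here.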

Additional observations from a re-analysis of the deposited data

Results flagged for a closer look

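In 116 groups of 4 samples (the members and the other genes named), 10 had a sample far from the other 3, by a gap of over 0.829 of the group's range, and chance gives about 1 in 20. Among the members, these were Cpt2 in a3a6KO 2 (5.65, others 6.54 to 6.64), Acads in a3a6KO 1 (4.53, others 5.40 to 5.53), Acadvl in control 1 (6.46, others 5.80 to 5.91), Crot in control 1 (3.14, others 3.79 to 3.91), Ppara in control 2 (3.31, others 2.63 to 2.70), Abcd3 in control 3 (6.58, others 7.32 to 7.45) and Decr2 in control 4 (6.35, others 7.14 to 7.25). Among the other genes, they were Pipox in a3a6KO 1 (3.77, others 3.13 to 3.22), Acot13 in a3a6KO 3 (7.69, others 8.19 to 8.25) and Crat in control 4 (5.37, others 6.04 to 6.16).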

How the results depend on the processing

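The count of genes called, and of members called, was 0 in limma under each alternative run. In the fit as reported, 1000 of all genes and 4 members had an unadjusted p under 0.05 in limma, Ehhadh among these 4. Ehhadh was chosen on this contrast and stays among the members counted below, except with dim genes left out. The difference of Hsd17b4 was -1.16 to -0.85 over its 14 alternatives. The trended variance, the replicate block and all named probe sets could not change it (-0.96 in each). With dim genes left out, 10 members were tested, and Ehhadh and Hsd17b4 were not among them. Of these 10, 7 had lower means and 0 had an unadjusted p under 0.05 in limma. For the alternatives, the shares of all genes with lower means and with an unadjusted p under 0.05 in limma were not counted. The members' counts of both kinds therefore have no background here. With the basal keratin covariate, 15 members were lower in a3a6KO, the peroxisomal median was 0.034 and the mitochondrial median 0.15. In that fit Etfa differed by 0.10, Acaa1a by -0.75 and Hsd17b4 by -1.13. The cause was not tested. Leaving out single samples gave 2 to 7 members at an unadjusted p under 0.05, 19 to 25 members with lower means, a peroxisomal median of -0.090 to 0.032 and a mitochondrial median of -0.11 to 0.12, and the sign turned at least once in 19 of the 38 members. Deviations of same-numbered a3a6KO and control samples correlated at -0.061 to 0.040, which shows no pairing by number but cannot exclude it. With the replicate block, 0 genes were called and 3 members had an unadjusted p under 0.05 in limma. The medians stayed at -0.055 and -0.045, since a block of complete pairs leaves every difference unchanged.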
